A study of Mus musculus with 4 samples.

Results

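The genes of protein kinase CK2 were followed in regulatory T cells (Tregs) of mice that lack, by their label, one of its subunits. The members are the 3 rows of the gene tables whose identifier is Csnk2b, Csnk2a1 or Csnk2a2, out of 28032 genes with an exon length. CD4+Foxp3+ Tregs of C57BL/6 mice aged 8 weeks had been sorted on a flow cytometer, from wild-type (WT) animals and from animals of the genotype Csnk2b-/-, called Csnk2b-deficient. Each genotype was sequenced once from spleen (replicate 1) and once from tracheal lymph nodes (replicate 2), which makes 4 RNA-seq libraries. No source used here gives the exons that the mutant allele lacks, the means of deletion or whether animals were pooled.

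CK2 is a serine/threonine kinase that is active without an upstream signal. A dimer of the regulatory beta subunit, encoded by Csnk2b, holds a pair of catalytic subunits, which can be alpha, encoded by Csnk2a1, or its close relative alpha prime, encoded by Csnk2a2. The catalytic subunits work without beta, and beta stabilises them and steers which substrates they reach. In T cells the beta subunit is known to bind the surface receptor CD5, and CK2 phosphorylates regulators such as Ikaros.

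Csnk2b lies at chr17:35253141-35258998, Csnk2a1 at chr2:152052575-152107588 and Csnk2a2 at chr8:97969996-98012727, in the coordinates of the tables (mm9). Counts came as exon reads, as exon-exon reads, which cross the join of 2 exons and so come from spliced RNA, and as intron-exon reads, which cross an exon border into the intron. Each count is given as a total and as the part with 1 placement in the genome. Exon joins of the members are shown because exon-exon reads were all placed once for 2 of the genes and seldom for the third. Sequences are of the reference transcripts in GENCODE vM21 (GRCm38), 25 bases on each side of the join, with the 4 bases on either side of it in capitals.
Csnk2b, first coding join: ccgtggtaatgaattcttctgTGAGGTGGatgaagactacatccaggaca
Csnk2b, last coding join: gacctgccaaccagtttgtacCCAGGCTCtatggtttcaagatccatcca
Csnk2a1, coding join 7: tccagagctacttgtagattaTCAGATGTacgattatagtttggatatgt
Gm10031, same bases: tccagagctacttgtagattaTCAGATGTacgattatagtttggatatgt
Csnk2a2, same place: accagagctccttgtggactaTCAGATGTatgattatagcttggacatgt
Csnk2a1, coding join 1: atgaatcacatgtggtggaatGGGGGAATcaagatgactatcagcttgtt
Gm10031, same bases: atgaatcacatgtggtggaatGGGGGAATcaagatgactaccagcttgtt

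Gm10031 is a copy of Csnk2a1 without its introns at chr1:156524012-156526664 (GRCm38). Over 2649 aligned bases it differed from the Csnk2a1 transcript at 4. Of the 11 coding joins of Csnk2a1, 10 stood letter for letter in Gm10031. The exception was join 1, where Gm10031 carries T41C, counted from 1 at the 5′ end of the window. The pseudogenes Csnk2a1-ps, Csnk2a1-ps1 and Gm11255 also hold stretches of the Csnk2a1 transcript. The coding sequences of Csnk2a1 and Csnk2a2 were 74.1% identical over 1050 aligned bases. At join 7 they differed by T1A, A10C, A16G, T19C, C31T, T40C and T46C, the fewest of the 10 joins that both genes share. None of the 50-base windows of the Csnk2b or Csnk2a2 transcript occurred in a transcript of another gene.

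The libraries held 4737814 to 6750695 exon reads. They carried the Treg markers Foxp3 and Il2ra, with at least 562 and 2944 exon reads in every library. The T cell marker Cd3e had at least 2054, while the B cell gene Pax5 and the NK cell gene Ncr1 had 0 reads in all 4. Summed over 4 myeloid markers, the level was 10.4 and 6.57 CPM (counts of exon reads scaled to library size with TMM factors) in WT and Csnk2b-deficient spleen, and 46.2 and 297.5 CPM in WT and Csnk2b-deficient lymph node, where Lyz2 alone gave 45.7 and 283 CPM. Over 7164 genes with a mean of at least 20 CPM, the log2 ratio between genotypes had an SD of 0.28 for spleen and 0.75 for lymph node. With 1 library per genotype and tissue there are no like replicates. Where tissue is a term, each p-value sets a genotype change against a spread taken from its unevenness across the tissues and from all genes. The edgeR fit of exon reads had 1 residual degree of freedom and a median of 10.1 prior ones, which come from all genes.

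Csnk2b transcript was lower in both Csnk2b-deficient libraries but far from absent. The spleen libraries had 649 exon reads in WT and 148 in Csnk2b-deficient Tregs, or 82.3 and 25.6 CPM. The lymph node libraries had 667 and 283, or 163 and 62.0 CPM. Within each tissue the WT value was well above the deficient one, and both deficient libraries lay below both WT libraries, as 7.08% of the 11113 genes tested did. Genes at or below 0.5 of the WT level in both tissues, as Csnk2b was, made up 0.738%. The level left was 31.1% of WT in the spleen (exact 95% interval for counting error 25.8 to 37.2%) and 38.1% in the lymph node (33.0 to 43.8%). These intervals overlap. Fewer cells with the transcript and less transcript per cell cannot be told apart in such bulk samples. The myeloid sum of 297.5 CPM in the Csnk2b-deficient lymph node library stands beside its 38.1%, and its part in that value was not tested. Foxp3, the factor that defines Tregs and was used to sort them, was lower in the same libraries, with 811 and 374 CPM in WT and Csnk2b-deficient spleen and 570 and 123 CPM in the lymph node pair. Its log2 fold change of -1.66 ± 0.25 had an edgeR adjusted p of 0.0375. That call depended on the processing. With median-of-ratios size factors, on uniquely placed reads or without the tissue term, edgeR called 0 genes lower, so Foxp3 was not called lower. The 5 Treg markers, Foxp3 included, summed to 2666 to 4841 CPM and the 5 T cell markers to 2331 to 8044 CPM. Whether the drop of Foxp3 bears on the Csnk2b level was not tested.

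**Figure D1:**
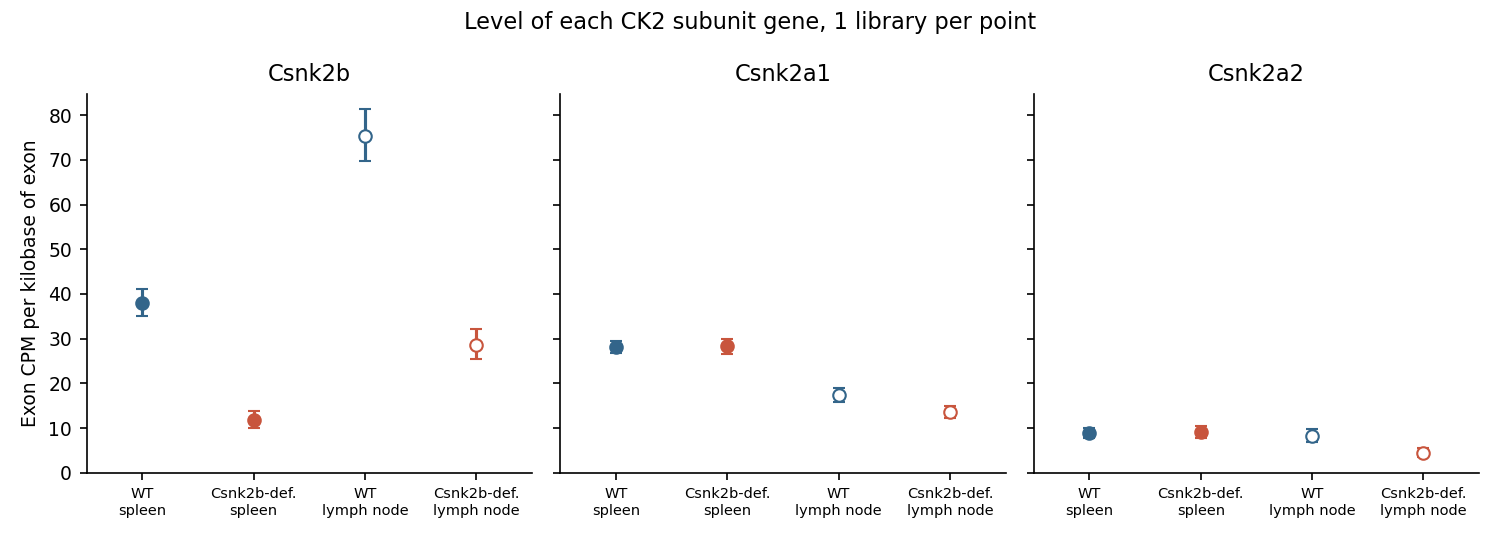
Exon CPM per kilobase of exon (y axis) of Csnk2b, Csnk2a1 and Csnk2a2 in the 4 libraries (x axis), 1 library per point, with exact 95% Poisson intervals for counting error. Csnk2b stands at 38.0 in WT and 11.8 in Csnk2b-deficient spleen, and at 75.3 and 28.7 in WT and Csnk2b-deficient lymph node, while the spleen points of both catalytic genes lie level.

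The rank of Csnk2b among all genes was more extreme in the spleen pair. Of the 7164 genes with at least 20 CPM, 4 had a lower log2 ratio there than Csnk2b, at -1.67. In the lymph node pair 164 were below its -1.39. In edgeR's quasi-likelihood test with tissue as a term, Csnk2b had a log2 fold change of -1.54 ± 0.26 (SE, 2 libraries of each genotype). Its Benjamini-Hochberg adjusted p over 11113 genes was 0.0658, which missed the threshold of 0.05. By unadjusted p Csnk2b ranked 17 among all genes and 3 among those lower. The fit called 0.018% of genes lower and 0.144% in either direction. DESeq2 and limma-voom called Csnk2b lower, where they called 0.135% and 0.198% of genes lower, and so did edgeR without a filter on low counts, where 0.182% were lower.

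Reads over the exon joins of Csnk2b were lower too. The spleen had 225 exon-exon reads in WT and 56 in Csnk2b-deficient Tregs, and the lymph node had 260 and 113. All of them were uniquely placed. The remaining level was 33.9% of WT in the spleen (24.9 to 45.7%) and 39.0% in the lymph node (31.0 to 48.8%), and both intervals hold the value from exon reads. In edgeR's fit of exon-exon reads over 7794 genes it had a log2 fold change of -1.49 ± 0.29 and an adjusted p of 0.149, and 0.0898% of genes were called, 0 of them lower. That fit had 289 genes at an unadjusted p below 0.05, and Csnk2b ranked first among those lower. In these reads limma-voom called Csnk2b lower, with 0.0257% of genes, and DESeq2 called 0 lower. In edgeR Csnk2b was called with no filter (0.0401% of genes lower), a filter at 5 CPM (0.0453%), median-of-ratios size factors (0.0898%) and upper-quartile scaling (0.0385%).

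The share of exon-exon reads among Csnk2b exon reads was alike in both genotypes within each tissue. These counts are summed over all joins, so they cannot show whether single exons were missing. Exon-exon reads made up 34.7% of exon reads in WT spleen (exact 95% binomial interval 31.0 to 38.5%) and 37.8% in Csnk2b-deficient spleen (30.0 to 46.2%). In the lymph node the shares were 39.0% (35.3 to 42.8%) and 39.9% (34.2 to 45.9%). Each WT share lies inside the interval of the deficient library, and each deficient share inside that of WT. Of 6023 genes with at least 70 exon reads in every library, between 91.4% and 97.2% had a smaller share than Csnk2b. Csnk2b had 12 and 6 intron-exon reads in WT and Csnk2b-deficient spleen and 0 in both lymph node libraries, too few to enter the test. Reads inside the gene but outside its exons numbered 75 in WT and 13 in Csnk2b-deficient spleen, which left 23.6% of the WT level (12.0 to 42.9%). The lymph node pair had 11 and 7. Of 11 annotated Csnk2b transcripts, the authors' tables listed 8 as detected in WT spleen, 2 in Csnk2b-deficient spleen, 2 in WT lymph node and 0 in Csnk2b-deficient lymph node, although that last library held 283 exon reads.

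**Figure D2:**
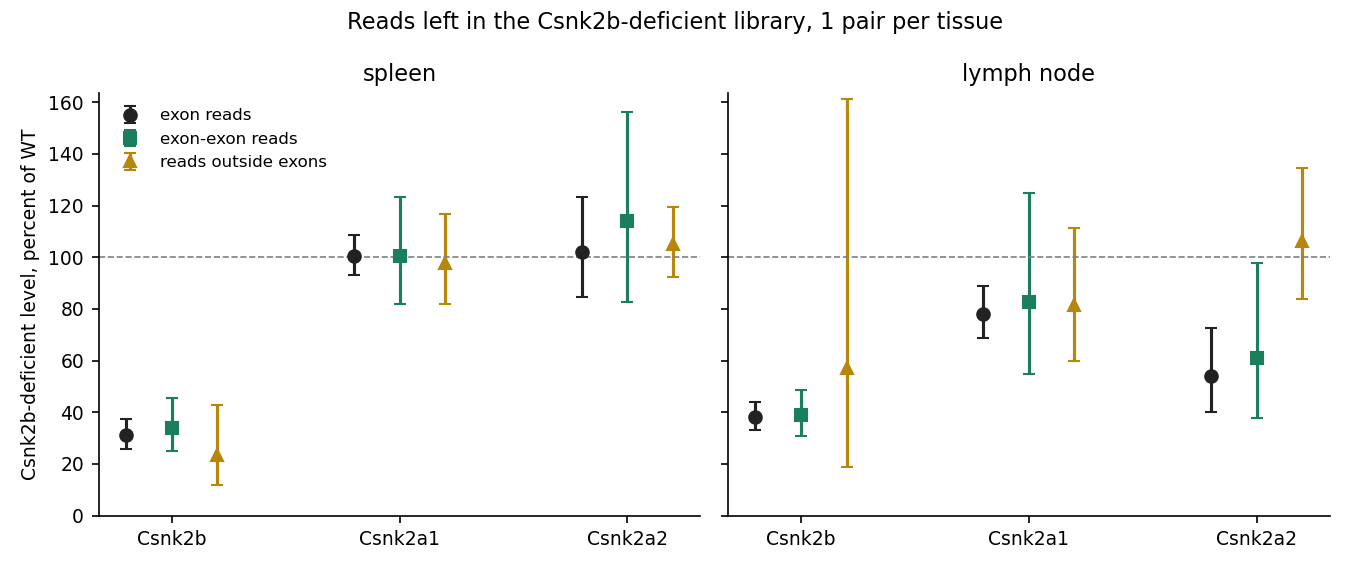
Level in the Csnk2b-deficient library as a percent of the WT library of the same tissue (y axis) for each member (x axis), by kind of read, with exact conditional 95% intervals for counting error; the dashed line marks 100%. Csnk2b lies near 31.1% in spleen and 38.1% in lymph node by exon reads, and in the lymph node the Csnk2a2 reads outside exons stay at 106% while its exon reads are at 54.1%.

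Csnk2a1, the gene of the alpha subunit, had the same level in both spleen libraries. They held 1573 exon reads in WT and 1159 in Csnk2b-deficient Tregs, or 199.5 and 200.5 CPM, so the deficient level was 100.5% of WT (93.1 to 108%). The lymph node libraries held 504 and 439 reads, or 123 and 96.2 CPM, which is 78.1% of WT (68.6 to 89.0%). Both lymph node values lay below both spleen values. Exon-exon reads numbered 225 and 166 for the spleen pair and 52 and 48 for the lymph node pair, or 100.6% and 82.8% of WT. Over all genes edgeR gave a log2 fold change of -0.17 ± 0.22 with an adjusted p of 0.932. In the lymph node pair 28.4% of the 7164 genes had a lower ratio than Csnk2a1.

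Csnk2a2, the gene of the alpha prime subunit, was the least abundant member. WT and Csnk2b-deficient spleen had 263 and 197 exon reads (33.4 and 34.1 CPM). WT and Csnk2b-deficient lymph node had 126 and 76 (30.8 and 16.7 CPM), and this last library was the low one. The deficient level was 102% of WT in the spleen (84.5 to 123%) and 54.1% in the lymph node (40.2 to 72.5%). In edgeR it had -0.41 ± 0.40 on the log2 scale and an adjusted p of 0.895. In the lymph node pair 8.60% of the 7164 genes had a lower ratio. The same library was low in exon-exon reads, which numbered 91 and 76 for WT and Csnk2b-deficient spleen and 47 and 32 for lymph node, or 114% of WT (82.9 to 156%) and 61.1% (37.7 to 97.8%). It was not low in reads outside exons. Its reads outside exons were 546 and 421 for the spleen pair and 135 and 160 for the lymph node pair. The deficient level of these was 106% of WT in lymph node (84.0 to 135%), an interval apart from that of the exon reads.

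Most reads of Csnk2a2 lay outside its annotated exons. Their share of gene reads was 67.5% in WT spleen, 68.1% in Csnk2b-deficient spleen, 51.7% in WT lymph node (45.5 to 57.9%) and 67.8% in Csnk2b-deficient lymph node (61.4 to 73.7%). WT lymph node was the low one, and the other 3 lay together. Over 6314 genes with at least 100 gene reads in every library the median share was between 15.9% and 21.2%, and 83.3% to 95.8% of genes had a smaller share than Csnk2a2. Csnk2a1 had 15.2% to 16.2% of its gene reads outside exons, and Csnk2b 1.62% to 10.4%. Intron-exon reads of Csnk2a2 numbered 9, 10, 0 and 3 in the order WT spleen, Csnk2b-deficient spleen, WT lymph node and Csnk2b-deficient lymph node. Of the members Csnk2a1 alone passed the filter in the fit of intron-exon reads, with 29 and 18 reads for WT and Csnk2b-deficient spleen and 1 and 6 for lymph node. Its edgeR log2 fold change there was 0.29 ± 0.71 (adjusted p = 0.999), and 0.0555% of 1801 genes were called.

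The exon-exon reads of Csnk2a1 were seldom placed once. Between 78.4% and 83.3% of its exon reads were unique, but of its exon-exon reads 65 of 225 were unique in WT spleen (28.9%, exact 95% interval 23.1 to 35.3%), 52 of 166 in Csnk2b-deficient spleen, 21 of 52 in WT lymph node and 22 of 48 in Csnk2b-deficient lymph node (45.8%, 31.4 to 60.8%). Beside this, 94.2% of the 50-base windows across a join of the Csnk2a1 transcript, and 49.3% of its other windows, occurred in a transcript of another gene. The Csnk2a2 exon and exon-exon reads were all unique, and of Csnk2b exon reads at least 98.6% were. The tables list under Gm10031 a feature with an exon length of 744 bases, shorter than the 2649 aligned bases of the copy, with 1, 3, 0 and 4 exon reads, in the order WT spleen, Csnk2b-deficient spleen, WT lymph node and Csnk2b-deficient lymph node. Which of the copies gave a read of Csnk2a1 with several placements cannot be told from these counts. On uniquely placed exon reads the genotype change of Csnk2a1 was -0.18 ± 0.23, close to that on all reads.

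**Figure D3:**
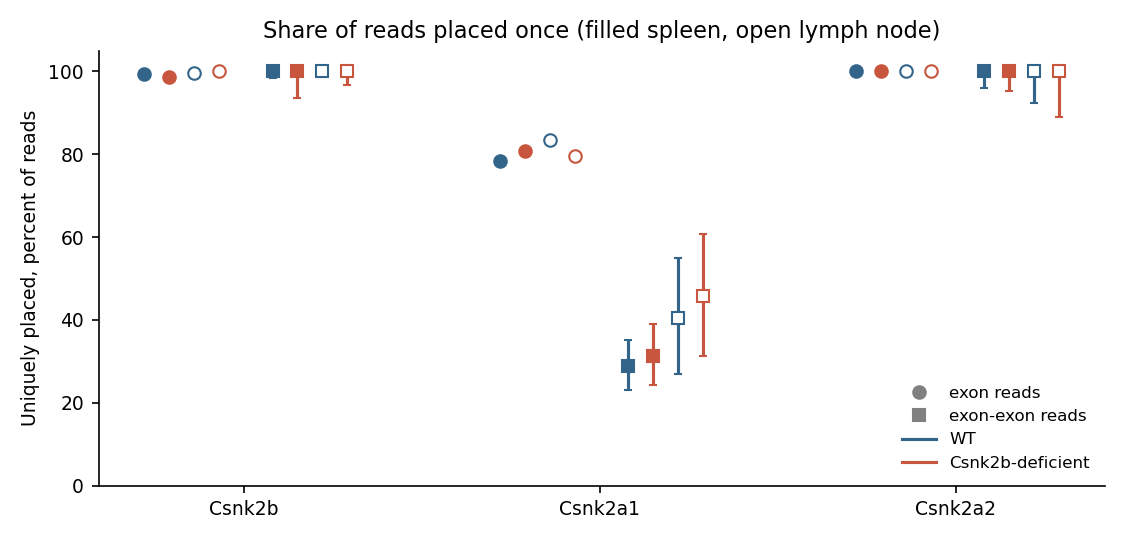
Uniquely placed reads as a percent of all reads (y axis) for each member (x axis), exon reads as circles and exon-exon reads as squares with exact 95% binomial intervals, 1 library per point. The Csnk2a1 squares lie between 28.9% and 45.8%, and all points of Csnk2b and Csnk2a2 lie at 98.6% or more.

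The order of the subunit levels, per kilobase of exon, differed between libraries. The exon lengths listed with the counts were 2164 bases for Csnk2b, 7089 for Csnk2a1 and 3773 for Csnk2a2. The reference transcripts hold 961, 4206 and 3773 bases, so the levels of different genes compare only under the listed lengths. In WT spleen Csnk2b was at 38.0 CPM per kilobase, Csnk2a1 at 28.1 and Csnk2a2 at 8.84, and in WT lymph node at 75.3, 17.4 and 8.16. In Csnk2b-deficient spleen the beta gene, at 11.8, was below Csnk2a1 at 28.3 and close to Csnk2a2 at 9.03 (7.81 to 10.4), and the exact Poisson intervals of beta and alpha prime overlap. In Csnk2b-deficient lymph node beta still led, with 28.7 compared with 13.6 and 4.42. The level of Csnk2a1 per kilobase was 2.13 to 3.18 times that of Csnk2a2, lowest in WT lymph node. On uniquely placed reads this factor was 1.77 to 2.53, again lowest in WT lymph node.

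The ratio of beta to the 2 catalytic genes needs no scaling between libraries, but its size depends on the exon lengths used. Exon reads of Csnk2b per kilobase over the sum for Csnk2a1 and Csnk2a2 gave 1.03 in WT spleen and 0.317 in Csnk2b-deficient spleen, and 2.95 and 1.59 in WT and Csnk2b-deficient lymph node. The deficient library was lower in each tissue, but the genotypes overlap, since deficient lymph node stood above WT spleen. The deficient ratio was 0.308 times the WT one in spleen and 0.540 times in lymph node. From the summed reads, with no division by length, the same factor was 0.309 for spleen (exact conditional 95% interval 0.253 to 0.375) and 0.519 for lymph node (0.431 to 0.625), and these intervals, which cover counting error alone, do not overlap. Over the 2 tissues the mean log2 change was -1.29, lower in both. The exact two-sided permutation test over 4 libraries (p = 0.667) cannot go below 0.333 and exchanges libraries across tissues, so it says nothing on this change.

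In the lymph node the size of the change depended on the denominator. With Csnk2a1 alone the ratio changed to 0.487 of WT there (0.401 to 0.591), and with Csnk2a2 alone to 0.704 (0.507 to 0.980), compared with 0.310 and 0.305 in the spleen. Csnk2b itself remained at 31.1% and 38.1% of WT in the 2 tissues, while Csnk2a1 and Csnk2a2 were lower in the deficient lymph node library. The balance of alpha to alpha prime did not differ beyond counting error in the spleen (0.984, 0.802 to 1.21) and was 1.44 times the WT value in the lymph node (1.05 to 2.00). That last interval took in no change on uniquely placed reads (1.38, 0.991 to 1.92). Between tissues the ratio of Csnk2b to the summed catalytic reads was 2.99 times higher in lymph node than in spleen of WT (2.59 to 3.46) and 5.03 times higher in Csnk2b-deficient Tregs (4.00 to 6.34).

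**Figure D4:**
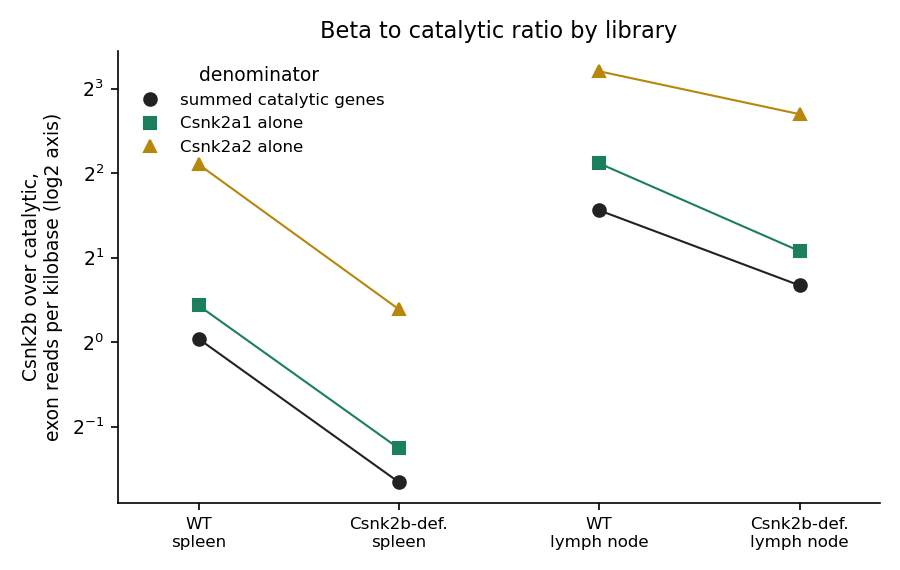
Csnk2b over catalytic exon reads per kilobase (y axis, log2) in each library (x axis), with the summed catalytic genes, Csnk2a1 alone or Csnk2a2 alone as denominator; lines join the libraries of 1 tissue. Every line slopes down from WT to Csnk2b-deficient, and the summed ratio of deficient lymph node, 1.59, lies above the 1.03 of WT spleen.

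Csnk2b and Csnk2a1 differed between tissues in opposite directions. In the edgeR fit with genotype as a term, Csnk2b was higher in lymph node than in spleen by 1.12 ± 0.26 on the log2 scale (SE, 2 libraries of each tissue, adjusted p = 0.00422), and Csnk2a1 was lower, at -0.88 ± 0.22 (adjusted p = 0.00796). Csnk2a2 had -0.57 ± 0.40 (adjusted p = 0.275), with -0.11 between the WT libraries and -1.02 between the deficient ones. Such calls were common, as 45.4% of genes were called between tissues, 23.3% higher and 22.2% lower. The median gene stood at -0.17, and at -0.32 with upper-quartile scaling, where Csnk2b (0.97) and Csnk2a1 (-1.03) were called as well. In exon-exon reads, of which 56.9% of genes were called (26.6% higher, 30.2% lower), Csnk2b had 1.46 ± 0.29 (adjusted p = 0.000945) and Csnk2a1 -1.09 ± 0.34 (adjusted p = 0.0159). On uniquely placed exon-exon reads Csnk2a1 had -0.56 ± 0.45 and lost the call (adjusted p = 0.308). The labels give one RNA and library kit for samples 1 and 2 and another for samples 3 and 4. If those numbers follow the order of listing, kit and tissue cannot be told apart.

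A gene whose span overlaps that of Csnk2b was low in the same libraries. Gpank1, at chr17:35258400-35261759 (mm9), overlaps 599 bases of the Csnk2b span at its high coordinates, where the minus-strand gene Csnk2b starts, and 16.0% of its reads were uniquely placed. WT and Csnk2b-deficient spleen had 175 and 17 of its exon reads, and WT and Csnk2b-deficient lymph node 34 and 5. Its edgeR log2 fold change, -2.90 ± 0.80, missed the threshold (adjusted p = 0.455). On the other side Ly6g5b, which does not overlap, had 22 and 10 reads for the spleen pair and 27 and 34 for the lymph node pair.

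The genes whose pattern over the 4 libraries came closest to that of Csnk2b were BC094916, Ubash3b, Cdk5rap1, Dync2h1 and a gene model that the tables list under a clone name. Likeness was the root mean square distance of log2 CPM, centred per gene, over 4 libraries and 7164 genes. The 5 lay at 0.31 to 0.41, and the median over all genes was 1.03. They were picked for the smallest distances, so a place below the median was given in advance. The nearest genes of the catalytic members, named below, lay closer to them than these 5 to Csnk2b. Ubash3b, which encodes a phosphatase that restrains T cell receptor signalling, had 104 and 60.9 CPM in WT and Csnk2b-deficient spleen and 252 and 98.0 in the lymph node. Of the clone's reads 1.08% were uniquely placed. Csnk2a1 lay closest to Arnt, Tmem165 and Ddx5 (0.016 to 0.024), and Csnk2a2 to Zfp212, Fam76b and Tspan13 (0.027 to 0.033). The catalytic genes lay 0.24 from each other and 1.22 and 1.05 from Csnk2b.

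Over all 11113 genes tested, 0.144% were called and 542, or 4.88%, had an unadjusted p below 0.05, and the median log2 fold change was 0.0087. With lists of 6 to 14 genes, a count of 0 called or 0 to 1 at an unadjusted p below 0.05 is near these shares. Of 6 genes of the CK1 family, monomeric kinases that share with CK2 the name casein kinase, edgeR called 0 and 0 had an unadjusted p below 0.05. Their median log2 fold change was -0.13. The most abundant, Csnk1a1, had -0.02 ± 0.20, Csnk1d 0.50 ± 0.28, Csnk1g2 -0.64 ± 0.33 and Csnk1g1 -0.24 ± 0.25. Of 11 tested genes whose proteins bind the beta subunit or the holoenzyme, 0 were called and 0 had an unadjusted p below 0.05, with a median of -0.02. Cd5 had 553 and 502 CPM in WT and Csnk2b-deficient spleen and 378 and 251 in the lymph node (-0.36 ± 0.20). The kinase gene Araf had 0.35 ± 0.21, the chaperone gene Hsp90ab1 0.07 ± 0.17 and Trp53, which encodes p53, 0.01 ± 0.22.

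The counts over CK2 substrates were near the same shares of all genes, 0.144% called and 4.88% at an unadjusted p below 0.05. Of 14 substrates in T cell signalling, transcription and survival, 0 were called, and the median was -0.06. Max, the partner of Myc, alone had an unadjusted p below 0.05 (-0.67 ± 0.28, adjusted p = 0.890). The Janus kinase gene Jak1 had -0.15 ± 0.17, Ikzf1, which encodes Ikaros, -0.30 ± 0.19, the interferon-induced factor gene Irf1 0.13 ± 0.18 and Nfkbia, the inhibitor of NF-kappaB, -0.23 ± 0.21. Of 14 substrates in translation, nucleolus, DNA repair and chromatin, 0 were called, and the median was 0.11. Top2a, a DNA topoisomerase of dividing cells, alone had an unadjusted p below 0.05 (0.63 ± 0.25, adjusted p = 0.890). Among them the nucleolar genes Npm1 and Ncl had -0.14 ± 0.16 and 0.20 ± 0.18, the deacetylase gene Hdac1 0.17 ± 0.20 and the initiation factor gene Eif3c 0.13 ± 0.19. The p-values of these lists bear on transcript levels and not on phosphorylation, which was not measured.

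**Figure D5:**
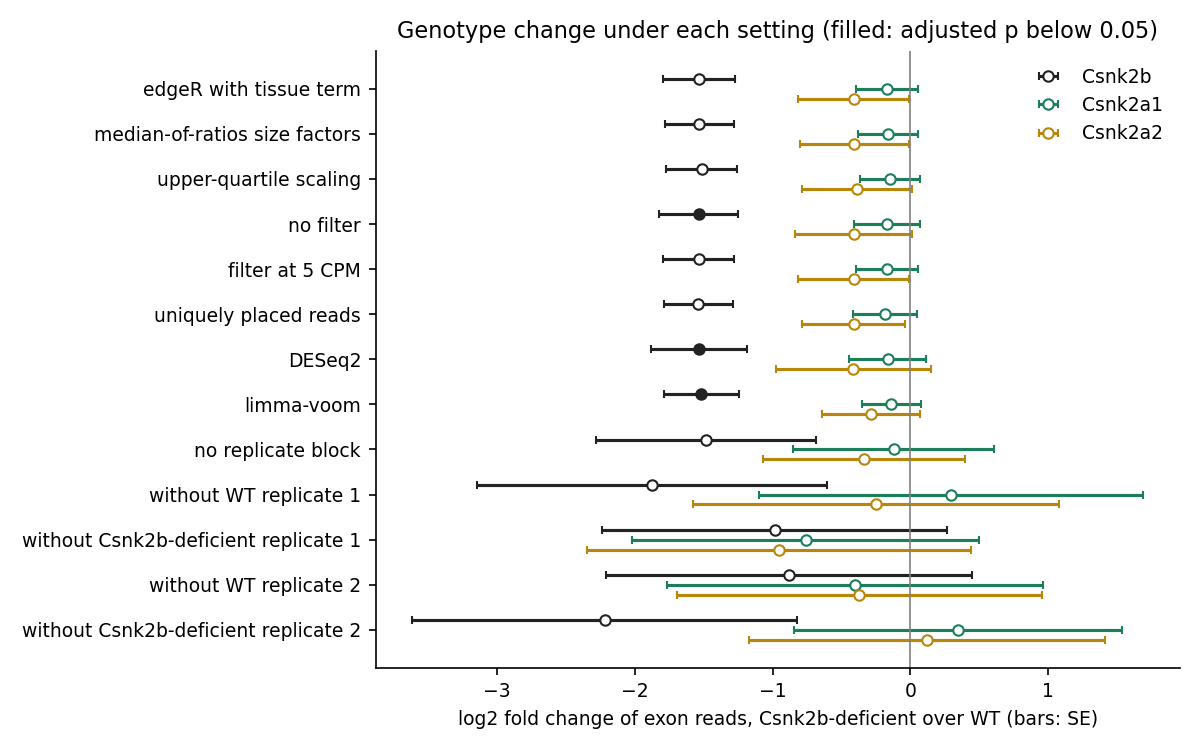
Log2 fold change of exon reads, Csnk2b-deficient over WT (x axis, bars are SE), of the 3 members under each setting (y axis); filled points have an adjusted p below 0.05. Csnk2b lies below 0 in every setting and is filled in 3 of them, and the catalytic genes are open throughout.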

How the data were processed

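The authors deposited, per the file headers, counts of reads per gene for each library, as total and uniquely placed exon, exon-exon, intron-exon and gene reads, with exon lengths. CASAVA 1.8.2 and the build mm9 stand in the submitters' processing notes; no source used here gives the aligner, the annotation or the use of strand, so Csnk2b and Gpank1 reads in their overlap are uncertain. Of 37583 features, the 9551 listed without an exon length carried 0 exon reads and were dropped. Total counts were used.

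Genes were fitted with edgeR 4.0.16 in R 4.3.3 (filterByExpr, TMM, robust quasi-likelihood, tissue plus genotype, 1 residual degree of freedom, Benjamini-Hochberg adjustment, threshold 0.05), separately for exon, exon-exon and intron-exon reads. A check on simulated exon counts used the same dispersion in every library, so it does not cover a spread that differs between tissues. The SE was taken as the size of the log2 fold change divided by √F. Log2 ratios within a pair used a prior count of 2. The replicate number is the tissue in the labels, so the block is the tissue term. Deviations from genotype means correlated at 0.783 within a number. Intervals are exact 95% Poisson, Clopper-Pearson or conditional, and cover counting error only. The labels do not say that the libraries came from separate animals, so p-values measure the spread between these libraries.

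Alternatives were other scalings and filters, DESeq2 1.42.0, limma-voom (limma 3.58.1), uniquely placed reads, no block and leaving libraries out; those of the tissue difference were added after seeing the data. The members and lists were chosen with earlier results of these data known. The rule for named genes took the members, overlapping genes, up to 4 most abundant genes per list and the nearest patterns (5 for Csnk2b, 3 for each catalytic gene). Gm10031, Ly6g5b, Foxp3, Max and Top2a were added after their values were seen. Supt16 had no row under that name, and Cd163 and Fgf2 did not pass the filter.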

Additional observations from a re-analysis of the deposited data

Results flagged for a closer look

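Csnk2a1 and Csnk2a2 had log2 ratios of opposite sign in the 2 tissues, each from 1 pair of libraries. Csnk2a1 had 0.0070 for spleen and -0.35 for lymph node, and Csnk2a2 had 0.030 and -0.87. The spleen values lie next to 0, and the difference between the tissues was not tested, since the fit has 1 residual degree of freedom, which that difference would use.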

How the results depend on the processing

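The genotype change of Csnk2b exon reads was negative in all 14 alternatives. Its adjusted p was below the threshold with DESeq2 (-1.53, adjusted p = 0.00567), limma-voom (-1.52, 0.00380) and no filter (-1.54, 4.99e-05), and between 0.0847 and 1.00 in the other 9 fits with a test. Without the tissue term, the replicate block, edgeR gave -1.48 ± 0.80 for Csnk2b and called 0 genes (29 at an unadjusted p below 0.05). With a single library left out, genotype was the only term and the lone sample of an arm was assumed to vary like the others. The arms then differed in tissue, so genotype and tissue differences cannot be told apart in those values. Leaving out libraries or a tissue gave -2.22 to -0.88 for Csnk2b, -0.76 to 0.35 for Csnk2a1 and -0.95 to 0.12 for Csnk2a2. The sign turned for Csnk2a1 without WT replicate 1 (0.30) and without Csnk2b-deficient replicate 2 (0.35), and for Csnk2a2 without Csnk2b-deficient replicate 2 (0.12); neither was called in any fit. In the spleen pair alone Csnk2a2 had 0.030 and in the lymph node pair alone -0.87.

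Csnk2b exon-exon reads stayed lower in all 14 alternatives (-2.38 to -0.56 with libraries or a tissue left out) and were called with a filter at 5 CPM (-1.46), limma-voom (-1.48), median-of-ratios size factors (-1.51), no filter (-1.5) and upper-quartile scaling (-1.48). With libraries left out, exon-exon reads turned sign for Csnk2a1 (0.46 without WT replicate 1, 0.42 without Csnk2b-deficient replicate 2) and Csnk2a2 (0.095 without Csnk2b-deficient replicate 2, -0.66 to 0.095 over the 4 libraries). The causes were not tested.

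The count of genes called by exon reads, 16, was 4 with median-of-ratios size factors, 7 on uniquely placed reads, 50 with DESeq2, 64 with limma-voom, 111 without a filter, 0 without the block and 0 to 1 with a library left out (44 to 803 at an unadjusted p below 0.05). The log2 change of the beta to catalytic ratio ranged from -1.70 to -0.89 over 7 alternatives, -1.70 and -0.89 being the single tissues. The tissue differences of Csnk2b and Csnk2a1 kept direction and call in all 7 alternative fits of exon reads. Low counts limit the intron-exon reads: 0 in a library allows up to 3.69 by the exact Poisson interval.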
